A study of Homo sapiens with 6 samples.

Results

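Transcription of 10 genes of the canonical Wnt pathway was followed in HCT116, an established human colorectal carcinoma line that carries mutant β-catenin. The genes were taken by symbol from the rows counted on the sense strand, where all 10 of 10 were found among 22984 rows: the secreted inhibitor DKK1, the feedback regulators AXIN2, NKD1, RNF43 and ZNRF3, the stem-cell targets LGR5 and ASCL2, and the nuclear effectors CTNNB1, TCF7 and LEF1. They were chosen by name, but with earlier results of these data known, lower DKK1 in treated cultures among them. Shares of these genes set against all genes below are therefore descriptions and no independent support. Nascent RNA was measured by Bru-seq, in which cells incorporate bromouridine for 0.5 h and the labelled RNA is captured and sequenced, so that reads over exons and introns report ongoing transcription. Each of 6 cultures gave 1 library. DMSO at 0.01% for 4 h was the control in 2 cultures. The treated cultures, 1 each, received GSTO1 siRNA at 10 nM for 24 h (siGSTO1), C1-27, a GSTO1 inhibitor, at 1 μM for 4 h or for 24 h, or its inactive analogue C1-14 at 10 μM for 4 h. All cultures were of the same line, and a non-targeting siRNA culture and a 24 h DMSO culture were not analysed here, so that transfection or time in culture cannot be told apart from the treatment at 24 h. In bulk cultures, fewer cells making a transcript and less of it per cell cannot be told apart.

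In the canonical pathway, secreted Wnt proteins bind Frizzled receptors and LRP co-receptors and thereby stop a destruction complex, built on APC and AXIN proteins, from degrading β-catenin. Stabilized β-catenin enters the nucleus and activates genes together with DNA-binding proteins of the TCF/LEF family. Among these genes are several brakes on the pathway, and in the intestinal crypt the same programme maintains stem cells. In many colorectal cancers a mutation of APC or β-catenin keeps the programme on without a ligand.

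The sequence upstream of DKK1 is shown first, because most results below turn on its transcription. The 250 bases upstream of a RefSeq transcription start on GRCh38.p14 were searched on both strands for 4 words recognized by TCF/LEF proteins, which were the word CTTTGAA, then the word CTTTGAT, then the word CTTTGTA and last the word CTTTGTT. Entries existed for 5 of the 10 genes, 7 in all, since RNF43 and TCF7 have 2 starts each. AXIN2, NKD1, ZNRF3, LGR5 and ASCL2 had no entry in the set of windows used here. That is a limit of the set, and their upstream sequences were not searched. The DKK1 window and the second TCF7 window are printed because they held a word, and that of CTNNB1 because it encodes the effector itself. Each is written 5′ to 3′ on the strand of the gene, with the words in capitals. They lie at chr10:52314031-52314280 (plus strand), chr5:134123368-134123617 (plus strand) and chr3:41199255-41199504 (plus strand).
DKK1: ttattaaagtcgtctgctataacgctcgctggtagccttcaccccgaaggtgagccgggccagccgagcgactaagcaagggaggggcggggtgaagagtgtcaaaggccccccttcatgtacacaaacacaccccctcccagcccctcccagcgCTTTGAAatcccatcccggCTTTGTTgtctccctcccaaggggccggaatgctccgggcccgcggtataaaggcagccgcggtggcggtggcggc
TCF7, second start: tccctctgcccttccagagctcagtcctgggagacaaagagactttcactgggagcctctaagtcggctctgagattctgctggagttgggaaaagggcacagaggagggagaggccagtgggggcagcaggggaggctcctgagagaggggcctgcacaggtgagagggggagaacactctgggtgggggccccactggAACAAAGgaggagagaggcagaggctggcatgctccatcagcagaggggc
CTNNB1: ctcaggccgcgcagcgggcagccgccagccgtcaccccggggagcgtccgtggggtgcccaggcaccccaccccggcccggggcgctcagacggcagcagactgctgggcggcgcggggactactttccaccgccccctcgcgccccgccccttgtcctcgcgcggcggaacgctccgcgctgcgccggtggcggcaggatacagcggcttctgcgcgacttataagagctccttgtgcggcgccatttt
The DKK1 window held CTTTGAA 95 to 89 bases and CTTTGTT 76 to 70 bases before the start, both on the strand of the gene, and the 2 do not overlap. The second TCF7 window held CTTTGTT on the opposite strand, 50 to 44 bases before the start. The windows of CTNNB1 and LEF1, both windows of RNF43 and the first of TCF7 held none of these letters. Of 35116 such windows in the set used, 12% held at least 1 word and 1.21% held at least 2. A match of letters is a description of the window and was not tested as a binding site.

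The libraries differed in depth, with 23388424 to 46017051 reads behind the RPKM values (reads scaled to the counted length of the gene and to the reads of the library) and 18112861 to 36841146 reads on the sense strand of genes. The 2 DMSO cultures differed from each other by 1.4-fold or more at 19.1% of 7825 genes, and culture 2 was the lower at 16.3%. Of the Wnt genes, 3 of the 7 tested genes with reads in both cultures were at least 1.4-fold lower in culture 2, namely AXIN2, NKD1 and TCF7, where 22.9% of all 14381 such genes were. GSTO1 itself was at 3.51 and 3.72 RPKM in DMSO, 2.70 in siGSTO1, 3.78 and 4.21 in C1-27 at 4 h and 24 h, and 3.82 in C1-14. In siGSTO1 it was at 0.747 of the DMSO mean, which did not pass the test (edgeR adjusted p = 0.314). These values report transcription of GSTO1 and are no measure of knockdown, since its mature RNA and protein were not measured here. The paper reports knockdown from labelling of the protein and from western blotting, at later times after transfection and at other siRNA doses. Of 12 epithelial markers, 4 were over 0.5 RPKM in every library (EPCAM, KRT8, KRT18 and KRT19), and CDH1 was as well in siGSTO1. CDX1 and CEACAM6 were at 0 in all libraries, and KRT20, VIL1, LGALS4 and CEACAM5 were at 0.0262 RPKM or less. The list summed to between 14.5 and 32.8 RPKM, nearly all of it from the 4 named genes, against 0.0636 to 0.315 for 6 fibroblast, 0.775 to 1.36 for 6 leukocyte and 0.179 to 0.387 for 4 endothelial markers.

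The 10 genes spanned a wide range of transcription. DKK1 was by far the most transcribed, with a DMSO mean of 41.7 ± 7.18 RPKM (SD, n = 2), which placed it 29th of 21471 genes. CTNNB1 followed at 4.59 ± 0.269 RPKM and ZNRF3 at 1.27 ± 0.0825 RPKM. The neighbouring levels of AXIN2 (0.320 ± 0.121 RPKM), TCF7 (0.240 ± 0.0768) and NKD1 (0.214 ± 0.0665) lay within the spread of the DMSO cultures. RNF43 lies inside a row of the same strand, assigned to the microRNA MIR4315, that runs from 43568147 to 62818220 on chromosome 17. It is given at 2.51 ± 0.267 RPKM, but 4557 of its 63894 bp (7.13%) were counted, and whether the MIR4315 row is the reason was not tested. Its level is therefore not placed in the order, and its differences between libraries rest on that short stretch. LGR5, LEF1 and ASCL2 were at or near 0 in every library. In the plot of levels by library, the other 7 genes are set side by side.

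**Figure D1:**
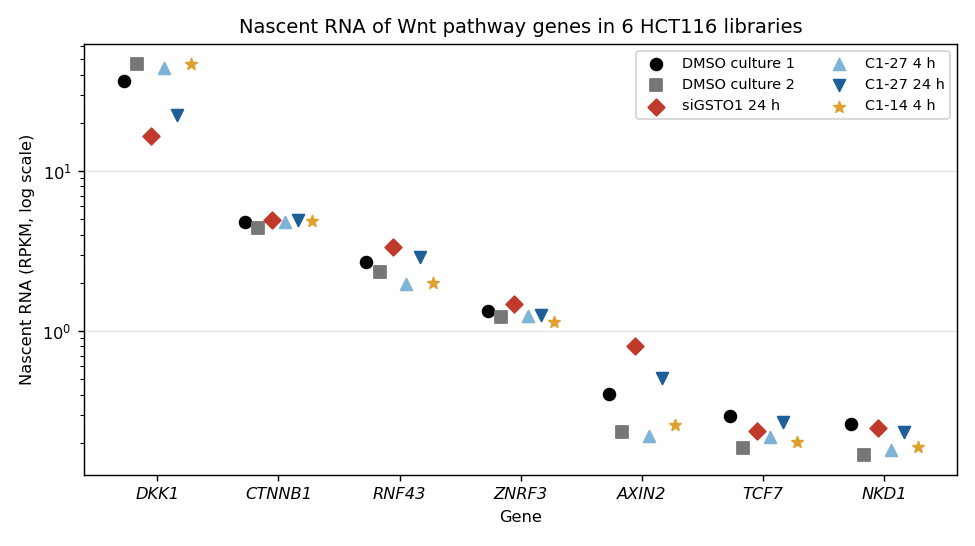
Nascent RNA in RPKM (log axis) of 7 Wnt pathway genes, 1 point per library. LGR5, LEF1 and ASCL2 are left out because some or all of their values are 0. DKK1 was lowest in siGSTO1 (16.6) and in C1-27 at 24 h (22.4), whereas AXIN2 was highest in the same libraries (0.811 and 0.506), and CTNNB1 stayed between 4.40 and 4.96.

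For the tests, all 6 libraries were fitted with edgeR, in which the DMSO pair alone gives the spread and each treated library is assumed to vary like it. The spread is shared largely across genes, so a gene's own gap between the DMSO cultures is not fully carried into its adjusted p. Expression of 8 of the 10 genes was high enough to be tested, and LEF1 and ASCL2 were not tested. A gene was called at a Benjamini-Hochberg adjusted p under 0.05 over 14431 genes. In siGSTO1, 3 of the 8 were called, AXIN2 higher and DKK1 and LGR5 lower, where 4.91% of all genes were called (3.69% higher and 1.21% lower). LGR5 had counts high enough for testing only in DMSO culture 2, C1-27 at 4 h and C1-14, the libraries in which it was highest. Its call and its part in the 3 therefore carry no weight as support. The median log2 fold change of the 8 was 0.04, against 0.02 over all genes. None of the 8 was called by edgeR in C1-27 at 4 h (background 0.0208%), in C1-27 at 24 h (0.36%) or in C1-14 (0.139%), and the smallest adjusted p was 0.0534, for DKK1 in C1-27 at 24 h. At an unadjusted p under 0.05 there were 0, 2 and 0 genes in these comparisons, and DESeq2 likewise called 0 in each. The median log2 fold changes of the 8 were -0.13, 0.08 and -0.17, against -0.02, 0.00 and 0.00 over all genes. All 4 comparisons share the same DMSO cultures.

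A rule on size without a test was used beside this, namely a ratio of at least 1.4-fold in the same direction against each DMSO culture alone, for genes over 300 bp with a mean RPKM over 0.5. It was met in siGSTO1 by DKK1 and AXIN2 among 5 Wnt genes above the RPKM limit, where 9.78% of 8138 genes met it (6.49% higher and 3.29% lower). AXIN2 was above that limit only through its level in siGSTO1. In C1-27 at 24 h the rule was met by DKK1 alone among 4 genes, with a background of 2.79% of 7918 (0.897% lower). It was met by none of the 4 in C1-27 at 4 h (0.378% of 7667) or in C1-14 (2.07% of 7784). The 4 genes were DKK1, RNF43, ZNRF3 and CTNNB1.

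**Figure D2:**
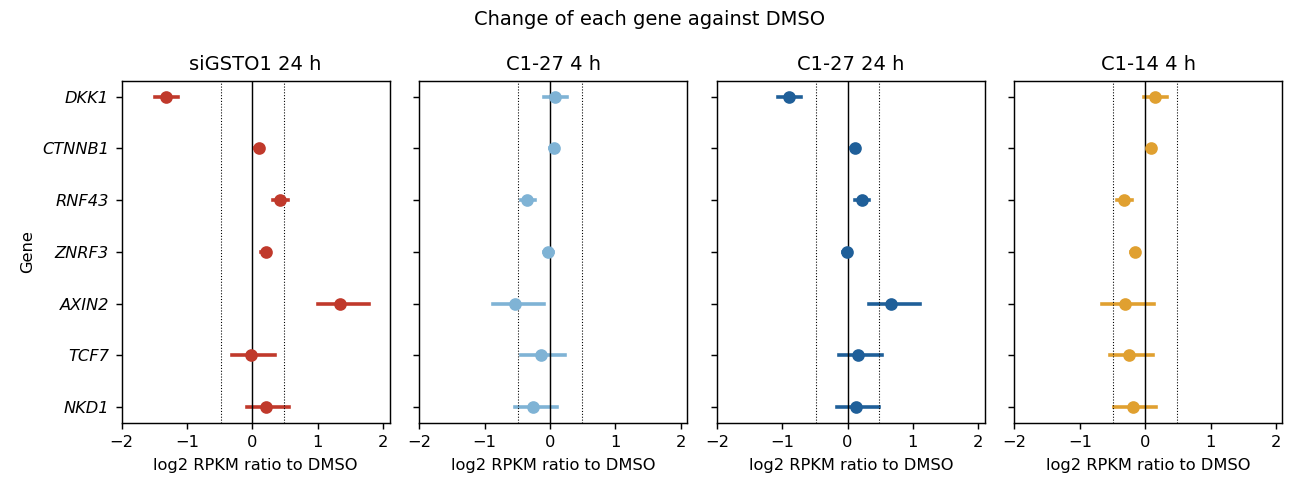
Ratio of RPKM to DMSO on the log2 scale for 7 genes in each treated library. The point is the ratio to the mean of both DMSO cultures, the bar runs between the ratios to each culture alone, and dotted lines mark 1.4-fold. DKK1 lies wholly below the lower line at 24 h of either treatment, and AXIN2 lies wholly above the upper line in siGSTO1 only.

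DKK1 encodes a secreted protein that occupies LRP5 and LRP6 and so blocks Wnt signalling at the cell surface. It lies on chromosome 10 from 54074041 to 54077417 (hg19, plus strand), and the whole 3377 bp was counted. Its nascent RNA was at 36.7 and 46.8 RPKM in DMSO cultures 1 and 2, 16.6 in siGSTO1, 44.1 in C1-27 at 4 h, 22.4 in C1-27 at 24 h and 46.4 in C1-14. These values rest on 2896, 6449, 1474, 5757, 3488 and 5429 reads, in the same order. The 4 libraries at 4 h, DMSO included, lay between 36.7 and 46.8 RPKM, and both 24 h libraries lay below all of them.

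In siGSTO1, DKK1 fell to 0.398 of the DMSO mean, being at 0.453 and 0.355 of cultures 1 and 2. The log2 fold change was -1.45 ± 0.27 (SE), with an edgeR adjusted p of 1.11e-05, and the highest adjusted p under the alternatives was 3.25e-04. The counting interval against the pooled DMSO reads was 0.365 to 0.407 (95%, Clopper-Pearson), which covers counting error only. In C1-27 at 24 h, DKK1 was at 0.538 of the DMSO mean, with 0.612 and 0.479 against each culture and a counting interval of 0.501 to 0.541. That difference exceeded the gap between the DMSO cultures, which was 1.28-fold, but its log2 fold change of -0.95 ± 0.26 had an edgeR adjusted p of 0.0534. The alternatives gave adjusted p values from 0.0560 to 0.478.

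At 4 h, DKK1 was at 1.06 of the DMSO mean in C1-27 and at 1.11 in C1-14, with counting intervals of 0.989 to 1.06 and 1.04 to 1.11. Both libraries lay between or close to the DMSO cultures (1.20 and 0.941 of cultures 1 and 2 in C1-27, 1.26 and 0.991 in C1-14). The doses of the compounds were 1 and 10 μM, so their values are set side by side and no comparison was made. Within C1-27, at the same dose, DKK1 at 24 h was at 0.509 of its level at 4 h. The log2 difference of -1.05 ± 0.29 did not pass the test (edgeR adjusted p = 0.131; the background of calls was 0.125%). Between the 24 h libraries, siGSTO1 was at 0.741 of C1-27, with a log2 difference of -0.49 ± 0.29 and an adjusted p of 0.772.

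AXIN2, on the minus strand of chromosome 17 from 63524683 to 63557740, encodes a scaffold of the destruction complex and is a widely used readout of β-catenin activity. It was at 0.405 and 0.234 RPKM in DMSO, 0.811 in siGSTO1, 0.221 in C1-27 at 4 h, 0.506 in C1-27 at 24 h and 0.257 in C1-14. The reads behind these were 313, 316, 704, 282, 769 and 295. Both 24 h libraries lay above both DMSO cultures, and the 4 h treatments lay close to DMSO culture 2. The DMSO cultures themselves differed by 1.73-fold.

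In siGSTO1, AXIN2 rose to 2.54 times the DMSO mean, 2.00 and 3.46 times cultures 1 and 2, with a counting interval of 2.45 to 3.05 against the pooled reads. The log2 fold change was 1.26 ± 0.34 and the edgeR adjusted p 0.00788, but DESeq2 gave 0.146 and did not call it. In C1-27 at 24 h, AXIN2 was at 1.58 times the DMSO mean. Its ratio was 1.25 against culture 1 alone, which is under 1.4-fold, but past 1.4-fold against culture 2 alone (0.506 against 0.234 RPKM). Its log2 fold change of 0.64 ± 0.34 had an adjusted p of 1.00. In C1-27 at 4 h and in C1-14 the ratios were 0.690 and 0.805, with 0.941 and 1.10 against culture 2 alone. AXIN2 at 24 h of C1-27 was at 2.29 times its 4 h level, a log2 difference of 1.12 ± 0.41 that did not pass the test (edgeR adjusted p = 0.763).

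NKD1, which binds Dishevelled proteins and restrains the pathway, lies on the plus strand of chromosome 16 from 50582241 to 50674771. It was at 0.262 and 0.167 RPKM in DMSO, 0.247 in siGSTO1, 0.180 in C1-27 at 4 h, 0.234 in C1-27 at 24 h and 0.188 in C1-14. All 4 treated libraries lay between the DMSO cultures, which differed by 1.56-fold. Its log2 fold changes ran from -0.21 ± 0.32 to 0.11 ± 0.32.

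RNF43 and ZNRF3 are membrane E3 ubiquitin ligases that remove Frizzled receptors from the cell surface. RNF43, on chromosome 17 from 56431038 to 56494931 (minus strand), was at 2.70 and 2.32 RPKM in DMSO, 3.37 in siGSTO1, 1.97 in C1-27 at 4 h, 2.91 in C1-27 at 24 h and 2.01 in C1-14. The 24 h libraries were above both DMSO cultures and the 4 h treatments below both. The ratios were 1.34, 0.787, 1.16 and 0.801 in that order, and no log2 fold change against DMSO exceeded its SE (0.32 ± 0.36 in siGSTO1, the largest of the 4 in size). Between C1-27 at 24 h and 4 h the log2 difference was 0.48 ± 0.41, which did not pass the test (edgeR adjusted p = 1.00).

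ZNRF3, on chromosome 22 from 29279755 to 29453476 (plus strand), was much steadier, and it had 5409 to 10099 reads per library. It was at 1.33 and 1.21 RPKM in DMSO, 1.47 in siGSTO1, 1.25 in C1-27 at 4 h, 1.26 in C1-27 at 24 h and 1.14 in C1-14. Its ratios to DMSO were 1.15, 0.981, 0.992 and 0.897. In siGSTO1 the counting interval was 1.13 to 1.20 and the log2 fold change 0.09 ± 0.26 (SE). The interval covers counting error only and the SE comes with 1 treated library, so neither bounds the size of a change.

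CTNNB1 encodes β-catenin itself, whose amount in cells is set mainly by degradation of the protein. The gene lies on chromosome 3 from 41240942 to 41281939 (plus strand). It was at 4.78 and 4.40 RPKM in DMSO, 4.91 in siGSTO1, 4.80 in C1-27 at 4 h, 4.96 in C1-27 at 24 h and 4.86 in C1-14. The ratios to DMSO were 1.07, 1.05, 1.08 and 1.06, and the highest upper bound of the counting intervals was 1.12. All 4 treated libraries were thus within 1.13-fold of either DMSO culture, and their log2 fold changes ran from -0.01 ± 0.25 to 0.10 ± 0.25.

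TCF7, on chromosome 5 from 133450402 to 133483920 (plus strand), encodes a DNA-binding partner of β-catenin. It was at 0.295 and 0.186 RPKM in DMSO, 0.236 in siGSTO1, 0.218 in C1-27 at 4 h, 0.269 in C1-27 at 24 h and 0.203 in C1-14, so that all treated libraries lay between the DMSO cultures. LEF1, on chromosome 4 from 108968701 to 109090112 (minus strand), had 4 and 0 reads in DMSO, 3 in siGSTO1, 5 in C1-27 at 4 h and 0 in the other two libraries. Of the other TCF/LEF genes, TCF7L2 was at 9.37 and 8.93 RPKM in DMSO and between 8.04 and 11.2 in all libraries, and TCF7L1, named after its values were seen, was at 0.356 and 0.306 RPKM in DMSO. TCF7L2 was the most transcribed of the 4 in every library.

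LGR5, the R-spondin receptor that marks intestinal stem cells, lies on chromosome 12 from 71833813 to 71978621 (plus strand). It had 0 and 33 reads in DMSO cultures 1 and 2, 0 in siGSTO1, 17 in C1-27 at 4 h, 2 in C1-27 at 24 h and 10 in C1-14. The DMSO cultures alone therefore spanned the whole range of the treated libraries. The edgeR call in siGSTO1 (adjusted p = 0.0148) sets 0 reads against a pair that includes 0 reads, and it was lost without the filter on low counts (adjusted p = 0.0750). Against the pooled DMSO rate siGSTO1 was at least 4.50-fold lower, taking 3 reads in that library as the limit for a count of 0, but no fold against culture 1 exists. ASCL2, on chromosome 11 from 2289728 to 2292182 (minus strand), encodes a transcription factor of the crypt base. It had 0 reads in all 6 libraries, which allows a level of up to 0.0266 to 0.0522 RPKM, depending on depth.

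The rest of the pathway was read from 6 lists with 125 genes, of which 123 were in the data and 90 could be tested. These lists, too, were drawn up with earlier results of these data known. In siGSTO1, 12 of the 90 were called (13.3%, against 4.91% of all genes), 8 higher and 4 lower. The median log2 fold change of the 90 was 0.03. Under DESeq2, 3 of the 90 were called, namely KIAA1199, CCND1 and MYC. The list of other β-catenin/TCF targets held 7 of the 12, with 4 higher and 3 lower among 20 tested, and its median log2 fold change was 0.23. In the same list, 8 of 19 genes (42.1%) were at least 1.4-fold lower in DMSO culture 2 than in culture 1, against 22.9% of all genes tested.

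Among targets, KIAA1199, which encodes a hyaluronan-degrading protein, had 139 and 66 reads in DMSO and 730 in siGSTO1, and rose (log2 fold change 2.90 ± 0.40, edgeR adjusted p = 6.26e-10). Its DMSO cultures differed by 3.67-fold in RPKM, and siGSTO1 was 4.68-fold above the higher of them. EPHB3, a receptor that positions cells along the crypt, was at 0.0436 and 0.0250 RPKM in DMSO and 0.144 in siGSTO1. SOX4, a transcription factor, was at 1.32 and 0.735 RPKM in DMSO and 3.51 in siGSTO1. The log2 fold changes were 2.04 ± 0.57 and 1.71 ± 0.40 (edgeR adjusted p = 0.0123 and 0.00139).

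CCND1, which encodes cyclin D1, was at 6.55 and 4.62 RPKM in DMSO and 2.59 in siGSTO1, and MYC was at 22.8 and 20.2 RPKM in DMSO and 10.96 in siGSTO1. Both fell in siGSTO1, with log2 fold changes of -1.21 ± 0.27 and -1.08 ± 0.26. EPHB2 (0.97 ± 0.29), FOSL1 (-0.81 ± 0.27) and the formin gene DAAM1 (0.97 ± 0.27) were the remaining called genes outside the ligands and receptors, and these 3 are named after their values were seen. FOSL1 was barely past the threshold (edgeR adjusted p = 0.0485), and its call was lost without the filter (0.0982), with the legacy test (0.0504) and with DESeq2 (0.133). DESeq2 also did not call EPHB2, EPHB3, SOX4 or DAAM1.

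Among ligands and receptors, WNT6 had 2 and 5 reads in DMSO and 25 in siGSTO1, and RSPO4, an R-spondin that enhances Wnt signalling, had 2, 3 and 16. Both were called higher by edgeR (log2 fold changes 2.97 ± 0.75 and 2.79 ± 0.85), from levels under 0.01 RPKM in DMSO. They passed the filter on low counts only through siGSTO1 and C1-27 at 24 h, the libraries in which their counts were highest, so their calls and their part in the 12 carry no weight as support. The call for RSPO4 (edgeR adjusted p = 0.0260) was lost without that filter (adjusted p = 0.143) and with the legacy test (adjusted p = 0.105). LGR4, a receptor for R-spondins, was at 0.128 and 0.0863 RPKM in DMSO and 0.266 in siGSTO1 (log2 fold change 1.22 ± 0.33, edgeR adjusted p = 0.00960, DESeq2 adjusted p = 0.124). WNT16 was at 1.76 and 5.61 RPKM in DMSO and 1.20 in siGSTO1. Its DMSO cultures differed by 3.18-fold, and its call (log2 fold change -1.76 ± 0.29) was lost under DESeq2 with an adjusted p of 0.725. Of 13 other secreted inhibitors only FRZB could be tested, at 0.426 and 0.605 RPKM in DMSO and 0.541 in siGSTO1. LRP6, the co-receptor that DKK1 occupies, was at 1.10 and 1.28 RPKM in DMSO and between 1.10 and 1.41 in all libraries. No gene was called by edgeR among the 18 tested nuclear partners, with 0 at an unadjusted p under 0.05, and they had a median log2 fold change of 0.04.

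**Figure D3:**
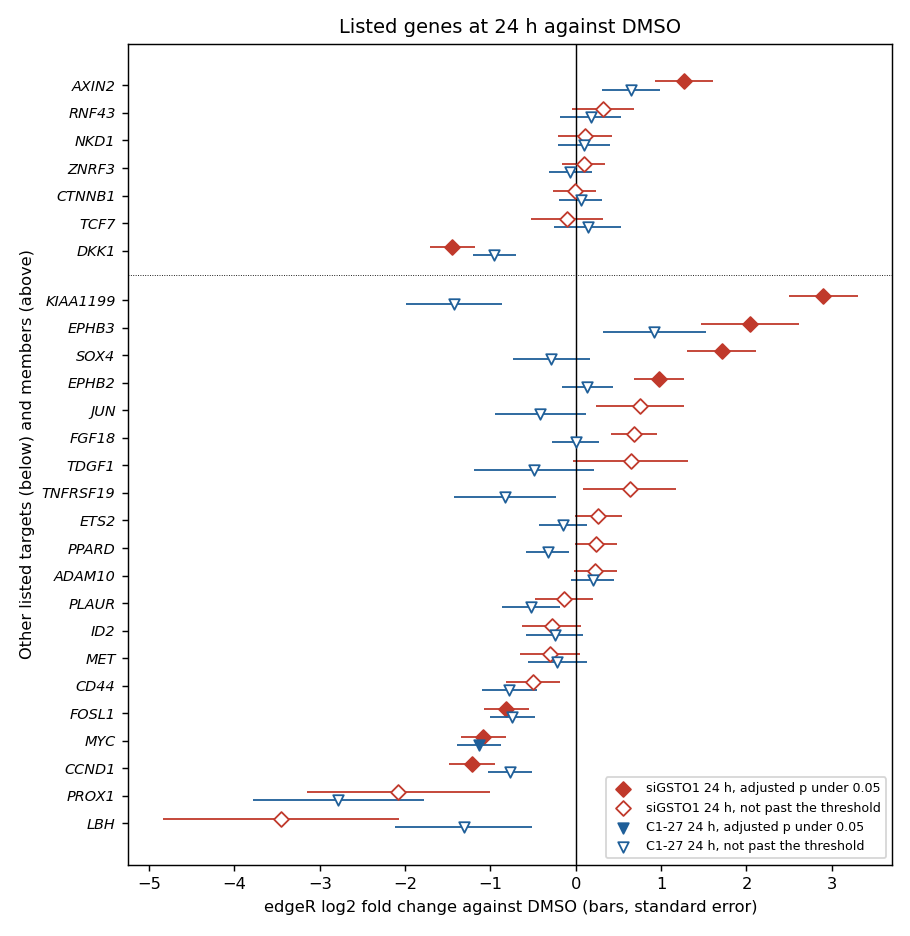
The edgeR log2 fold change against DMSO of 7 members (above the dotted line) and the 20 other β-catenin/TCF targets tested, for siGSTO1 (diamonds) and C1-27 at 24 h (triangles), with bars of 1 SE and filled symbols at an adjusted p under 0.05. LGR5 is left out because of its counts of 0. DKK1, CCND1, MYC and FOSL1 are on the left in both, while KIAA1199 is at 2.90 in siGSTO1 and -1.43 in C1-27.

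In C1-27 at 24 h, 2 of the 90 pathway genes were called, both lower (2.22%, against 0.166% of all genes called lower), with a median log2 fold change of -0.01. MYC was at 10.1 RPKM and fell to 0.471 of the DMSO mean (log2 fold change -1.14 ± 0.26, edgeR adjusted p = 0.00673). The receptor kinase gene ROR1 was at 0.170 and 0.163 RPKM in DMSO and 0.0866 in C1-27 at 24 h, and fell to 0.521 of the mean (log2 fold change -0.99 ± 0.26). Its adjusted p was 0.0482, and every alternative lost the call, with values from 0.0514 to 0.261. CCND1 was at 3.36 RPKM and FOSL1 at 4.56 (log2 fold changes -0.78 ± 0.26 and -0.74 ± 0.26), and neither passed the test.

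At 4 h, no pathway gene was called in C1-27 (edgeR, 0 of 90, with 2 at an unadjusted p under 0.05), and 0 were called by DESeq2. In C1-14, 1 was called by edgeR and 0 by DESeq2. The edgeR call was FGF18, a growth factor gene, at 1.58 and 0.364 RPKM in DMSO and 0.377 in C1-14. C1-14 was thus 1.04-fold of DMSO culture 2, and the call rests on culture 1. The log2 fold changes of DKK1 and AXIN2 in the 4 h libraries ran from -0.47 ± 0.37 (AXIN2 in C1-27) to 0.17 ± 0.24 (DKK1 in C1-14).

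The 24 h libraries were also set against each other, a comparison that does not use DMSO as the denominator. None of the 8 Wnt genes differed in the edgeR test or under DESeq2, and none had an unadjusted p under 0.05 in edgeR (smallest adjusted p = 0.772, background 1.43%). Of the 90 pathway genes, KIAA1199 (log2 difference 4.33), SOX4 (2.00) and ROR1 (1.27) were higher and WNT16 (-1.50) lower in siGSTO1 than in C1-27 by edgeR, and DESeq2 called only KIAA1199. Each arm is 1 library, and for WNT16 the DMSO cultures alone differed by more (3.18-fold) than these libraries did (1.20 against 3.25 RPKM). Between C1-27 at 24 h and 4 h, 0 of the 90 and 0 of the 8 were called by either tool, and 12 and 3 of them had an unadjusted p under 0.05 in edgeR.

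The profiles most like that of DKK1 over the 6 libraries were sought by Pearson's r of log2(RPKM + 0.1) among 7913 genes. They were ZNF839 (r = 0.997), LOC730755 (0.996), NOP58 (0.994), MYOF (0.994) and YWHAQ (0.993). The range of these genes differed widely, since the highest library was 10.9-fold above the lowest for LOC730755, 1.97-fold for MYOF and 1.17-fold for ZNF839. For AXIN2 the closest were TMBIM4 (0.997), VEGFA (0.995), ACTR1A (0.993), LMO4 (0.993) and C5orf62 (0.993). VEGFA, which encodes an angiogenic growth factor, was at 1.01 and 0.661 RPKM in DMSO, 1.52 in siGSTO1 and 1.06 in C1-27 at 24 h. The likeness rests on 6 points, which share their DMSO spread and depth, and is a description without a test.

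Antisense reads, which the deposited files list separately, set TCF7 apart from the other members. Its antisense reads numbered 512 and 558 in DMSO, 471 in siGSTO1, 600 and 855 in C1-27 at 4 h and 24 h, and 451 in C1-14, against 231, 254, 208, 282, 414 and 236 on the sense strand. The antisense count was the larger in all 6 libraries, at 1.91 to 2.26 times the sense count, with 2.22 and 2.19 in the DMSO cultures. Among 9526 genes with at least 100 sense reads in every library, 0.945% to 1.23% had more antisense than sense reads, and the median gene had 0.279% to 0.370% of its sense count. No row of the opposite strand overlaps TCF7 in the files, whereas that of LOC100506779 overlaps RNF43 and that of LOC641518 overlaps LEF1. For NKD1, RNF43, CTNNB1, ZNRF3 and DKK1 the antisense count was between 0% and 3.43% of the sense count, and AXIN2 had no antisense reads in any library. LGR5 and LEF1 had too few reads on either strand for a ratio.

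**Figure D4:**
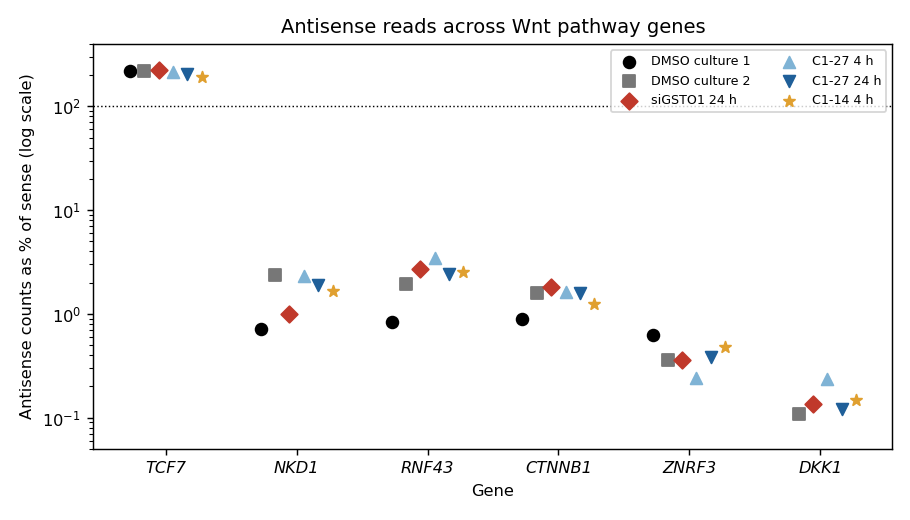
Antisense reads as a percent of sense reads (log axis) for 6 genes, 1 point per library, with a dotted line where both strands are equal. DKK1 in DMSO culture 1 is at 0 and is not drawn. The 6 TCF7 points lie between 191% and 226%, and the other genes lie at 3.43% or less.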

How the data were processed

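Bru-labelled RNA of 6 HCT116 cultures was analysed from 1 deposited file per library. The authors deposited expected counts for each gene on each strand, exons and introns together, on hg19, with many values not whole. The deposited signal is that count per counted base and was not used in a test. For the deposited RPKM, the authors divided each count by the counted bases and by the reads of the library. The submitters' processing notes name CASAVA 1.8.2, Bowtie 0.12.8, TopHat 1.4.1 and bedtools 2.16.2, without their settings. Rows of ambiguous strand (48) were left out.

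Counts were rounded, and the 14431 genes over 300 bp that reached 10 counts in 2 or more libraries were fitted with edgeR 4.0.16 in R 4.3.3, in 5 groups, with TMM and the quasi-likelihood test. The fit had 1 residual degree of freedom, from the DMSO pair. The spread was not equal across genes, since the SE for C1-27 at 24 h against 4 h was 0.475 for TCF7L2 and 0.287 for DKK1. A wide gap between a gene's own DMSO cultures did not give it a much wider error. In that comparison the SE was 0.292 for WNT16, whose DMSO cultures differed by 3.18-fold, and 0.289 for CCND1, where they differed by 1.42-fold. The SE was the size of the log2 fold change over the square root of F. Nothing in the labels says how separate the DMSO cultures were, so p-values reflect at most the spread between these samples. In edgeR that spread is shared largely across the genes tested. An edgeR p-value therefore does not fully account for a gene's own gap between the DMSO cultures. DESeq2 1.42.0, DESeq2 size factors, no filter on low counts, rescaled RPKM and each DMSO culture alone were alternatives, and edgeR's legacy quasi-likelihood was added after seeing the data. Exact 95% Clopper-Pearson intervals of a ratio cover counting error only. The members, the gene lists and the rules were chosen with earlier results of these data known. The pathway genes named were those called in a comparison, up to 8 by size of the fold change, with up to 3 of the most transcribed per list, and others are marked as chosen after their values were seen. Tables were handled with pandas 2.3.3 and numpy 2.4.6, intervals with scipy 1.17.1 and plots with matplotlib 3.10.9, under Python 3.11.15.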

Additional observations from a re-analysis of the deposited data

Results flagged for a closer look

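Antisense reads, which no comparison between groups above uses, exceeded both DMSO cultures with a 95% counting interval of the ratio to pooled DMSO above 1 for DKK1 in 1 library and for CTNNB1 in 3. DKK1 had 14 antisense reads in C1-27 at 4 h, or 0.104 RPKM, against 0 and 7 reads in DMSO. CTNNB1 had 41 and 116 antisense reads in DMSO (0.0428 and 0.0693 RPKM), and it was at 0.0883 RPKM in siGSTO1, 0.0788 in C1-27 at 4 h and 0.0784 in C1-27 at 24 h. For CTNNB1 the DMSO cultures differed from each other by more than these values differed from DMSO culture 2, and none of these differences was tested against replicate spread. Others exceeded both DMSO cultures with an interval that reached below 1. These were DKK1 in C1-14 (0.0683 RPKM), RNF43 in all 4 treated libraries (0.0512 to 0.0928 RPKM, against 0.0230 and 0.0458), NKD1 in both C1-27 libraries (0.00419 and 0.00446 RPKM), and LGR5 in siGSTO1 and in C1-27 at 4 h (3 and 6 reads, against 0 and 4). A gene of the opposite strand, LOC100506779, overlaps RNF43, and whether the antisense reads of RNF43 belong to it was not tested.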

How the results depend on the processing

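Of 264 alternatives to the fitted log2 fold changes, 258 kept their direction. The 6 that reversed were close to 0 or rested on few reads. ZNRF3 in C1-27 at 4 h was at 0.0194 with DESeq2 size factors, 0.0194 with DESeq2 and 0.0102 without the filter, LGR5 in C1-27 at 4 h was at 0.0899 with DESeq2, and NKD1 in siGSTO1 against C1-27 at 24 h was at -0.00385 with DESeq2 size factors and -0.00385 with DESeq2. With DESeq2, 1 member (DKK1) was called in siGSTO1 in place of 3. DESeq2 also called 3 pathway genes in siGSTO1 in place of 12, 0 in C1-14 in place of 1, and 1 in siGSTO1 against C1-27 at 24 h in place of 4. In C1-27 at 24 h, 1 pathway gene in place of 2 was called with DESeq2 size factors, 1 with DESeq2, 1 without the filter and 1 with the legacy test. DESeq2 gave no adjusted p in siGSTO1 for LGR5, WNT6 and RSPO4, so these are not counted as lost. The cause was not tested. Over all genes DESeq2 called 215 in siGSTO1 in place of 708, 0 in C1-27 at 4 h in place of 3, 18 in C1-27 at 24 h in place of 52, 2 in C1-14 in place of 20, 5 in C1-27 at 24 h against 4 h in place of 18, and 22 in siGSTO1 against C1-27 at 24 h in place of 206. Without DMSO culture 1, 3 members in place of 2 were past 1.4-fold in siGSTO1, with RNF43 added. With either DMSO culture left out, the counts for the other treatments stayed the same. Leaving out a DMSO culture leaves edgeR no residual degree of freedom, so only values were compared. No paired analysis was made, since only DMSO has replicate numbers and the labels tie no treated culture to either DMSO culture. Which DMSO culture the paper set against each treatment was not tested. It can matter for single genes. FGF18, which the paper lists as raised in C1-27 at 24 h, was at 0.978 RPKM there, between the DMSO cultures (1.58 and 0.364). Each treatment has 1 library, and LGR5, LEF1 and ASCL2 have too few reads for a fold change.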
